A study of Homo sapiens with 8 samples.

Results

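Glutathione S-transferases are enzymes that join glutathione to reactive, electrophilic compounds so that they can be exported, and 10 of their genes were followed here through H3K27ac, the histone acetylation found at active promoters and enhancers. The genes were GSTA1, GSTA4, GSTM2, GSTM3, GSTM4, GSTP1, GSTO1, GSTK1, MGST1 and MGST3, a list given by name. Of 49186 regions of the genome with an H3K27ac peak in at least 1 library, the 22 that lay in or within 20 kb of these genes were kept. H3K27ac was mapped by ChIP-seq in A549, a human lung adenocarcinoma cell line with a KEAP1 mutation, in 3 libraries from cells given control siRNA and 3 from cells given NRF2 siRNA. All cells were harvested 48 h after transfection and all chromatin was precipitated with 1 anti-H3K27ac antibody. NRF2 siRNA replicate 1 received siRNA 28, and replicates 2 and 3 received siRNA 30. All libraries come from this single line, so their spread says nothing of other cells.

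Cytosolic members fall into classes by sequence, alpha (GSTA genes), mu (GSTM), pi (GSTP1) and omega (GSTO1), while kappa (GSTK1) sits in mitochondria and peroxisomes and MGST1 and MGST3 belong to a separate family of membrane proteins. NRF2 is a transcription factor that KEAP1 normally marks for destruction. It pairs with small MAF proteins and binds antioxidant response elements, whose core reads TGACNNNGC, and several glutathione S-transferase genes are textbook targets.

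The lists held 27941, 34747 and 41571 peaks in control replicates 1, 2 and 3, and 23885, 34986 and 39108 peaks in NRF2 siRNA replicates 1, 2 and 3. They hold no read counts, so the depth behind a peak is unknown and no interval can be given for a single library. Lists of different length cannot be compared by fold enrichment, so levels are given as percentiles: the share of a library's own peaks that had lower fold enrichment than the highest peak in the region. A percentile moves with list length too, since a longer list holds more weak peaks, so percentiles at the starts are also given with every list cut to its 23885 peaks of highest fold enrichment, a setting chosen after the data were seen. Both replicate 1 libraries were, per the study, sequenced to fewer mapped reads, and their peak names lack the flow cell identifier that the other 4 lists carry. Since siRNA 28 was used in that pair alone, sequencing run and siRNA cannot be told apart. In controls, 4 of 5 epithelial genes (KRT8, KRT18, EPCAM and CDH1, but not KRT19) had a start called in all 3 libraries. Of 6 genes of other cell types, 0 did, although COL1A1 was called in some. The start of NFE2L2, the gene for NRF2, was called in all 3 controls, but a peak list does not measure its RNA and so is no check of the knockdown.

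The sequences that matter most for what follows are the matches to the NRF2 core in the regions that fell with NRF2 siRNA. In 3 of those 6 regions the match was the full TGACTCAGC, which also contains an AP-1 site (TGANTCA), and the other 3 held only looser TGACNNNGC cores. Matches were sought on both strands of GRCh37, the sequence of the hg19 build that the files use. Those shown are printed 5′ to 3′ on the strand of the match with the core in capitals. Where an annotated exon overlapped the stretch of 101 bases, a stretch of 29 bases was printed in its place. An annotated exon also overlapped each of the shorter stretches shown. The MGST1 start region held 3 looser cores, of which the one 1542 bp after the start is shown, and those at -500 and 2131 bp are not. The match at the start of GSTP1, whose change did not pass the test, is shown for comparison.
GSTM4 -19.7 kb, chr1:110179129-110179229, forward strand: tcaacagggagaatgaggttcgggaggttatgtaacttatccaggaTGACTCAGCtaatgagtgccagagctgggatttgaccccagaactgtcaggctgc
GSTM3 +21.8 kb, chr1:110262064-110262164, forward strand: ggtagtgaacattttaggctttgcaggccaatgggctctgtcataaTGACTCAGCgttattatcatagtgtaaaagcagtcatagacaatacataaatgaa
MGST3 +20 kb, chr1:165620401-165620429, reverse strand: accatcactaTGACTCAGCaaatacagcg
MGST3 +14.7 kb, first core, chr1:165615137-165615165, reverse strand: caggtgtagaTGACTTTGCaattcacttg
MGST3 +14.7 kb, next core, chr1:165616622-165616650, forward strand: tagaagtcagTGACTAAGCcaccaaattt
MGST1 start, core at 1542 bp, chr12:16502075-16502175, reverse strand: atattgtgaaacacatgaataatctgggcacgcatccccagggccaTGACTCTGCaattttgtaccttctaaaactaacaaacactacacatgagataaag
MGST1 +176.5 kb, chr12:16676729-16676829, reverse strand: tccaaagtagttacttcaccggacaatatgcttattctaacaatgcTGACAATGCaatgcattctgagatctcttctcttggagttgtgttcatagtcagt
GSTP1 start, chr11:67351207-67351235, forward strand: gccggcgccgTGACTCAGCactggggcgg
These letters are a description of the sequence and not evidence of binding.

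TGACTCAGC was present in 9.1% of all 49186 regions, and in 6.46%, 6.51% and 6.27% of the regions within 10% of the width of the GSTM4 -19.7 kb, GSTM3 +21.8 kb and MGST3 +20 kb regions. Among the 6 lowered glutathione S-transferase regions 3 held it, and among the other 16 regions 2 held it, one of them the region at the GSTP1 start. Across the genome it was present in 51.0% of the 1108 regions that fell, in 6.54% of the 657 that rose and in 10.5% of the 32673 tested. The looser core was in all 6 lowered regions and in 8 of the other 16, against 63.6% of all tested regions and 88.5% of the 1108 that fell. The other 16 include untested regions and were narrower, with a median width of 1126 bp against 1755 bp. In the MGST1 start region, which spans 8995 bp, a match to the looser core carries little information, since 93.8% of regions of like width had one. For MGST3 +14.7 kb, of 4610 bp, that share was 80.9%.

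The members differed first in whether their start carried the mark at all in control cells. A start was counted as active when a region over it was called in all 3 control libraries. By that description 6 members were active (GSTA4, GSTP1, GSTO1, GSTK1, MGST1 and MGST3), GSTM4 was partly marked and 3 were silent (GSTA1, GSTM2 and GSTM3). Over all 19834 coding genes 45.3% were active and 43.9% silent by the same rule. This split was made on the control values, so no test is given for it.

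**Figure D1:**
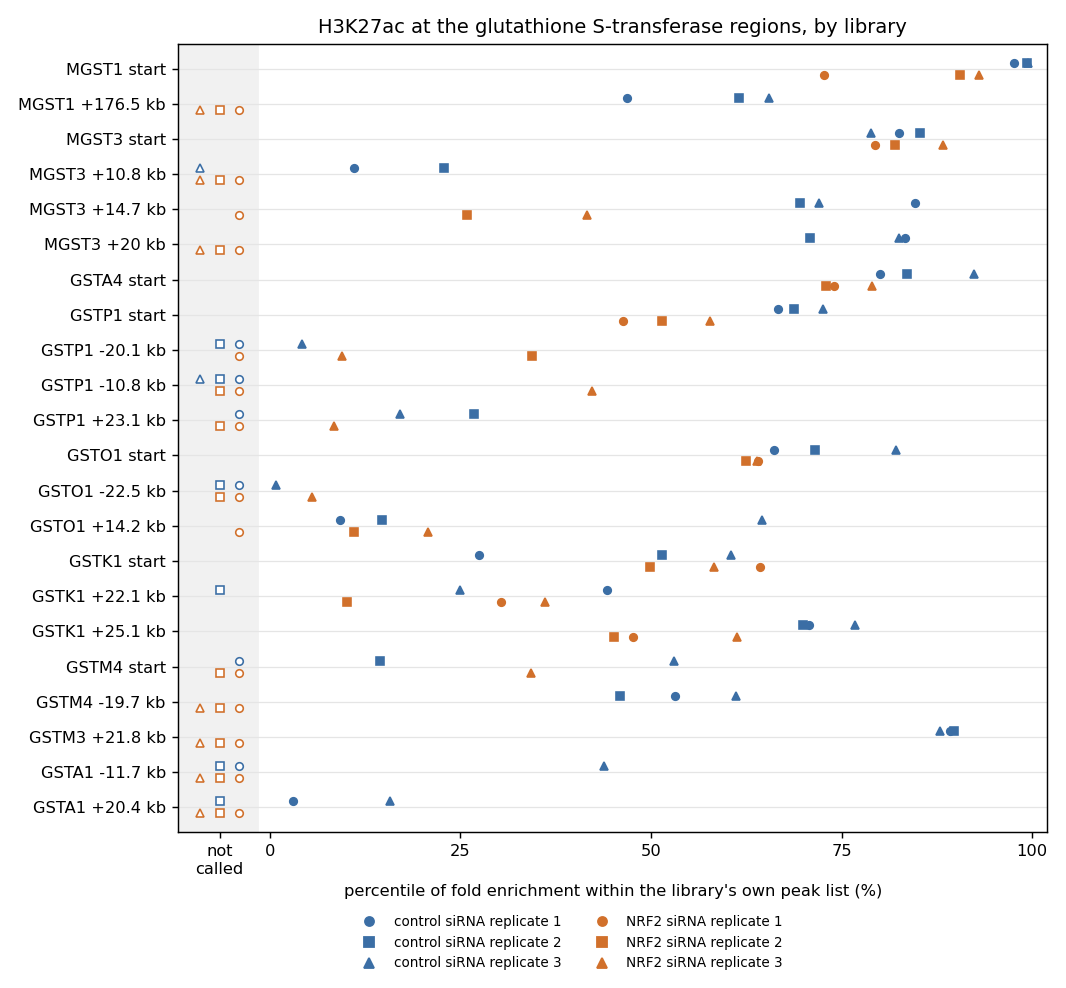
H3K27ac at the 22 regions, one row each, named by the nearest member and the distance of the region's centre from its start. The x axis is the percentile of fold enrichment within each library's own list, blue marks are control and orange marks NRF2 siRNA libraries, and open marks in the grey strip are libraries with no peak. MGST1 sits at 97.6 to 99.5 in controls, and 4 regions have blue marks from all 3 controls and no filled orange mark.

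MGST1, a trimeric enzyme of the endoplasmic reticulum and outer mitochondrial membrane, had the best ranked start. The region over it, chr12:16496553-16505547, covers its first exons and introns. It stood at the 97.6, 99.3 and 99.5 percentile in control replicates 1, 2 and 3 and at the 72.7, 90.5 and 93.0 percentile in the NRF2 siRNA replicates. The groups did not overlap, and NRF2 siRNA replicate 1 lay well below the other NRF2 siRNA libraries. In lists of equal length they did not overlap either, at 97.2 to 99.2 against 72.7 to 88.5.

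GSTA4, the alpha class enzyme that conjugates the lipid peroxidation product 4-hydroxynonenal, came next among the active cytosolic genes (chr6:52858382-52861830). Its start stood at 80.0, 83.6 and 92.4 in controls and at 74.0, 72.9 and 79.0 with NRF2 siRNA. All NRF2 siRNA values lay below all controls, by a mean of -10.0 percentile points, and of -13.2 points in lists of equal length, where they again lay below all controls. At the start of MGST3, a membrane enzyme with glutathione peroxidase activity (chr1:165599690-165609845), controls stood at 82.5, 85.3 and 78.9 and NRF2 siRNA libraries at 79.4, 82.0 and 88.3. These values overlapped, and the difference in means, 0.992 points, was smaller than the spread within either group (SD 3.19 and 4.59, n = 3 each).

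GSTP1, the pi class enzyme abundant in many epithelial tumours, stood at 66.6, 68.7 and 72.6 in controls and at 46.3, 51.4 and 57.7 with NRF2 siRNA (chr11:67347213-67352567). The groups did not overlap and differed by -17.4 points in mean, from 69.3 ± 3.04 to 51.8 ± 5.72 (SD, n = 3 each). In lists of equal length the GSTP1 difference was -20.5 points, also without overlap. For GSTO1, the omega class enzyme that reduces dehydroascorbate (chr10:106013988-106016491), controls stood at 66.2, 71.5 and 82.2 and NRF2 siRNA libraries at 64.1, 62.5 and 63.9. The NRF2 siRNA percentiles were tightly grouped just below the lowest control, control replicate 1. That separation was lost in lists of equal length, where controls stood at 60.4, 58.5 and 69.0 and NRF2 siRNA libraries at 64.1, 45.1 and 41.0. At GSTK1 (chr7:142960084-142961058) the order was mixed, with 27.4, 51.5 and 60.5 in controls and 64.3, 49.9 and 58.3 with NRF2 siRNA. In lists of equal length the groups overlapped at MGST3 and GSTK1 as well, with differences in means of 4.14 and 15.6 points.

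In control means the order of the active starts was MGST1 at 98.8 ± 1.05, GSTA4 at 85.3 ± 6.38, MGST3 at 82.2 ± 3.19, GSTO1 at 73.3 ± 8.15, GSTP1 at 69.3 ± 3.04 and GSTK1 at 46.5 ± 17.1 (SD, n = 3 each). The control values of GSTA4 and MGST3 overlapped, as did those of MGST3 and GSTO1 and of GSTO1 and GSTP1, while the lowest MGST1 value was above the highest of the other 5 starts. Peak height is not scaled by gene, so this is an order of rank within the lists and not of RNA.

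GSTM4, a mu class gene, had a short region of 674 bp at its start (chr1:110198340-110199013). It had no peak in control replicate 1, stood at 14.4 and 53.0 in replicates 2 and 3, and was called with NRF2 siRNA only in replicate 3, at 34.2. The neighbouring mu class genes GSTM2 and GSTM3 had no peak over any coding start in any control library. For GSTM2 the nearest region called in all controls was 31000 bp from the start and for GSTM3 it was 20710 bp. GSTA1, the main alpha class enzyme of liver, was also without a peak at its start, and its nearest such region was 75648 bp away. GSTA1 needs a limit that the others do not: 84.4% of the bases within 1 kb of its start have a copy of at least 95% identity elsewhere in GRCh37. Reads of low mapping quality were removed by the authors, so a missing peak there cannot be told apart from reads that could not be placed. For the other 9 members that share was 13.7% or less, and it was 0.0% for GSTM2, GSTM3 and GSTM4.

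Active and silent members also differed in promoter composition, in the window of 300 bases from 250 before to 50 after the start. The median ratio of observed to expected CpG was 0.7 in the 6 active and 0.32 in the 3 silent genes, against 0.78 over 19533 coding promoters, and the median GC content was 62.2%, 41.3% and 63.7%. GSTM3 was the most depleted member, with a ratio of 0.08, and only 3.75% of coding promoters had less. GSTM2 was the exception among the silent genes, with 65.3% GC and a ratio of 0.53, close to the 0.57 of the active GSTK1. In this window GSTP1 held the single TGACTCAGC of the family, at position -66 from the start, a motif found in 0.41% of coding promoters. The looser core was in GSTA4 (position -9) and in GSTO1 (positions -226 and -161) as well, in the class of active genes only, against 14.0% of coding promoters.

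**Figure D2:**
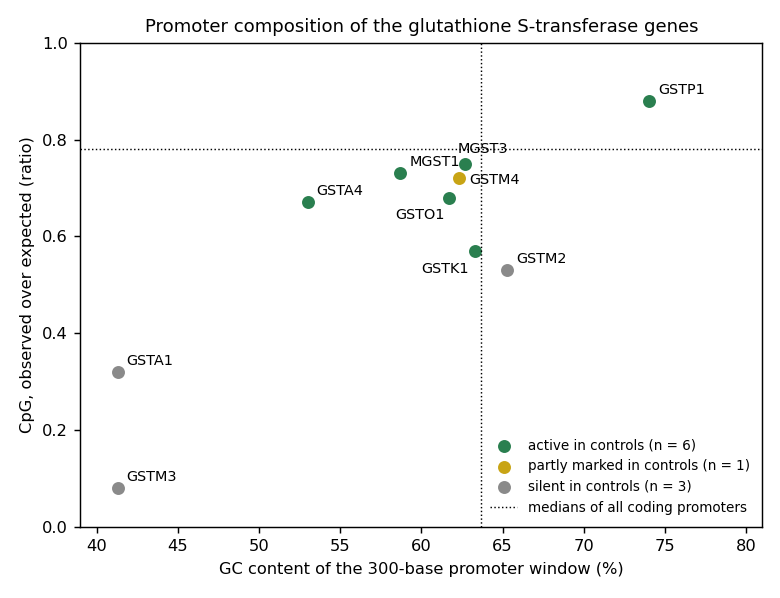
GC content in percent (x axis) and observed over expected CpG (y axis) of the 300-base promoter window of the 10 genes, coloured by whether the start was active, partly marked or silent in controls. Dotted lines are the medians of all coding promoters, and the silent genes GSTA1 and GSTM3 lie far to the lower left, at 41.3% GC.

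To compare NRF2 siRNA with control siRNA, each region with a peak in 3 or more of the 6 libraries was given its rank in every library, a library without a peak giving the lowest rank. Each rank was then replaced by its normal score, the value that a standard normal distribution takes there. The difference in mean score was tested with limma over all 32673 such regions. Of the 22 regions 17 entered this test, 6 of them fell (adjusted p under 0.05) and 0 rose. Among all tested regions 3.39% fell and 2.01% rose at that adjusted threshold. At an unadjusted limma p under 0.05 the counts among the 17 were also 6 and 0, and 3485 of the 32673 tested regions were lower. With the replicate number as a block, the paired fit, the counts were again 6 and 0, against 6.62% and 5.72% of all regions. The median score change was -0.36 over the 17 regions and 0.02 over all tested regions.

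The filter has a part in these counts. The 4 regions called in controls alone passed it through the control libraries, so they had to come out lower, and the size of their score change depends on the rank given to uncalled regions. With no filter, 6 of all 22 regions fell, against 2.29% of the 49186 regions. With only the regions called in all 6 libraries, 1 of 7 fell, that at the MGST1 start, against 2.19%.

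**Figure D3:**
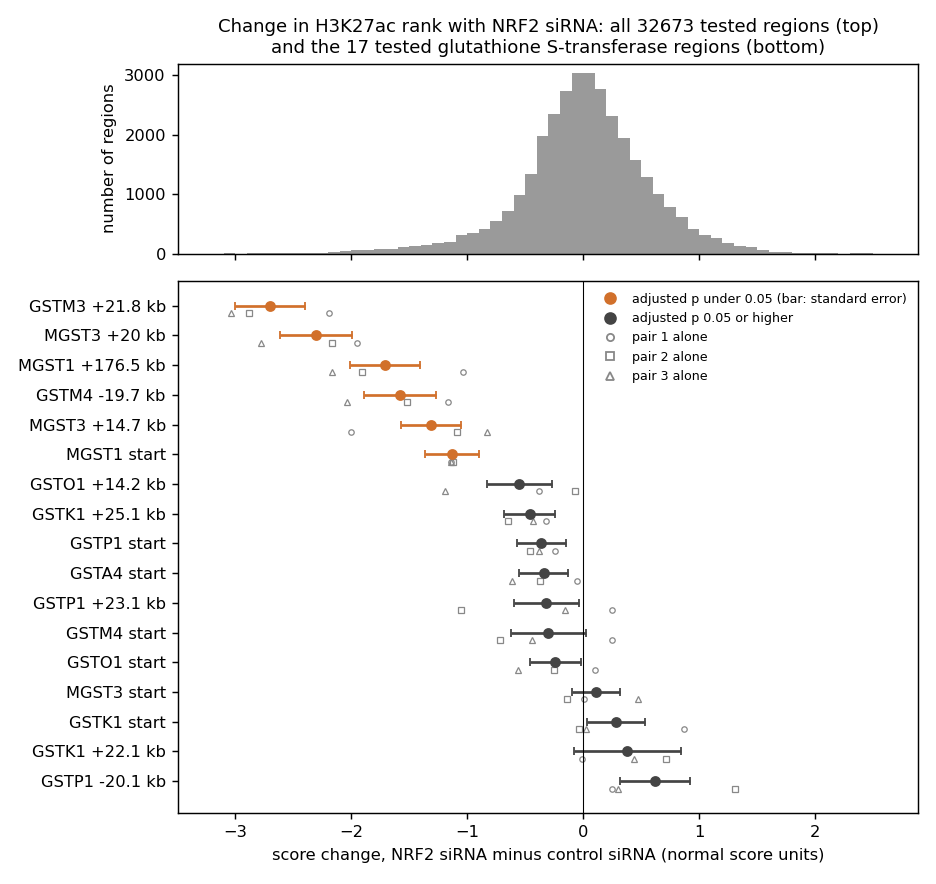
Score change with NRF2 siRNA (x axis, normal score units, NRF2 siRNA minus control) for the 32673 tested regions as a histogram above and for the 17 tested glutathione S-transferase regions below. Filled points are limma estimates with their standard errors, orange where the adjusted p was under 0.05, and small open marks are the 3 pairs. The 6 orange points run from -2.7 to -1.13.

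By position, of 7 regions at a member's start 1 fell, of 4 tested regions at the start of another gene 0 did, and of 6 tested regions without a coding start 5 did. Among all tested regions 1.05% of regions with a coding start and 4.41% of those without fell. Of those 5 regions 4 were the ones called in controls alone, which passed the filter through the controls, and the 1 fall among regions called in all 6 libraries was at a start, so these counts do not show that position and change go together.

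The largest fall of the 17 was inside the mu class cluster on chromosome 1. The region at chr1:110260740-110262950, named GSTM3 +21.8 kb for its distance from the GSTM3 start, lies across the 3′ end of exons of GSTM5 and beyond, 4385 bp from the nearest coding start, that of GSTM5. It stood at 89.2, 89.7 and 87.9 in controls and had no peak in any NRF2 siRNA library. Its score changed by -2.7 (SE 0.3, limma adjusted p = 0.00637, and 0.00552 with the replicate block). This region passed the filter through the controls alone, so its direction was set by that. Its NRF2 siRNA scores come from the rank given to uncalled regions, so SE and p do not measure the mark there. GSTM2 and GSTM3, the members within 20 kb of the region, had no peak over a coding start in any of the 6 libraries.

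At the other end of the cluster, the intergenic region GSTM4 -19.7 kb (chr1:110178436-110179679) stood at 53.2, 45.9 and 61.2 in controls and was uncalled with NRF2 siRNA. Its score changed by -1.58 (SE 0.31, adjusted p = 0.0243 by limma). Here too the filter, passed through the controls alone, set the direction, and SE and p do not measure the mark. AMPD2, an AMP deaminase gene, has the nearest coding start at 12000 bp, nearer than that of GSTM4. The weak region over the GSTM4 start itself changed by -0.3 (SE 0.32, limma adjusted p = 0.638).

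MGST3 had a string of marked regions along the gene. The region MGST3 +20 kb (chr1:165619792-165621090), which overlaps an exon, stood at 83.3, 70.9 and 82.6 in controls and had no peak with NRF2 siRNA. Its score changed by -2.3 (SE 0.31, limma adjusted p = 0.00953). This region passed the filter through the controls alone, so its lower score was set by that. Its SE and p do not measure the mark. The region MGST3 +14.7 kb (chr1:165612900-165617509) lies in an intron of the protein-coding MGST3 transcripts, while other annotated MGST3 exons overlap it. It stood at 84.6, 69.6 and 72.1 in controls, was uncalled in NRF2 siRNA replicate 1 and stood at 25.9 and 41.6 in replicates 2 and 3. Its score changed by -1.31 (SE 0.26, limma adjusted p = 0.0253). A smaller region at +10.8 kb, with 11.1 and 22.9 in control replicates 1 and 2 and no peak elsewhere, was called in too few libraries to be tested.

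The MGST3 start did not pass the test, with a score change of 0.11 (SE 0.21, limma adjusted p = 0.806). The highest peak of that wide region lay over the start itself, from about -0.7 to 1.6 kb or more, in every NRF2 siRNA library. In controls the peaks in the region covered 10111, 7329 and 8611 bp, and with NRF2 siRNA 2306, 5515 and 7442 bp. The widths overlap between the groups, and covered length also moves with the length of a list, from 46.3 to 113.3 Mb in all.

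**Figure D4:**
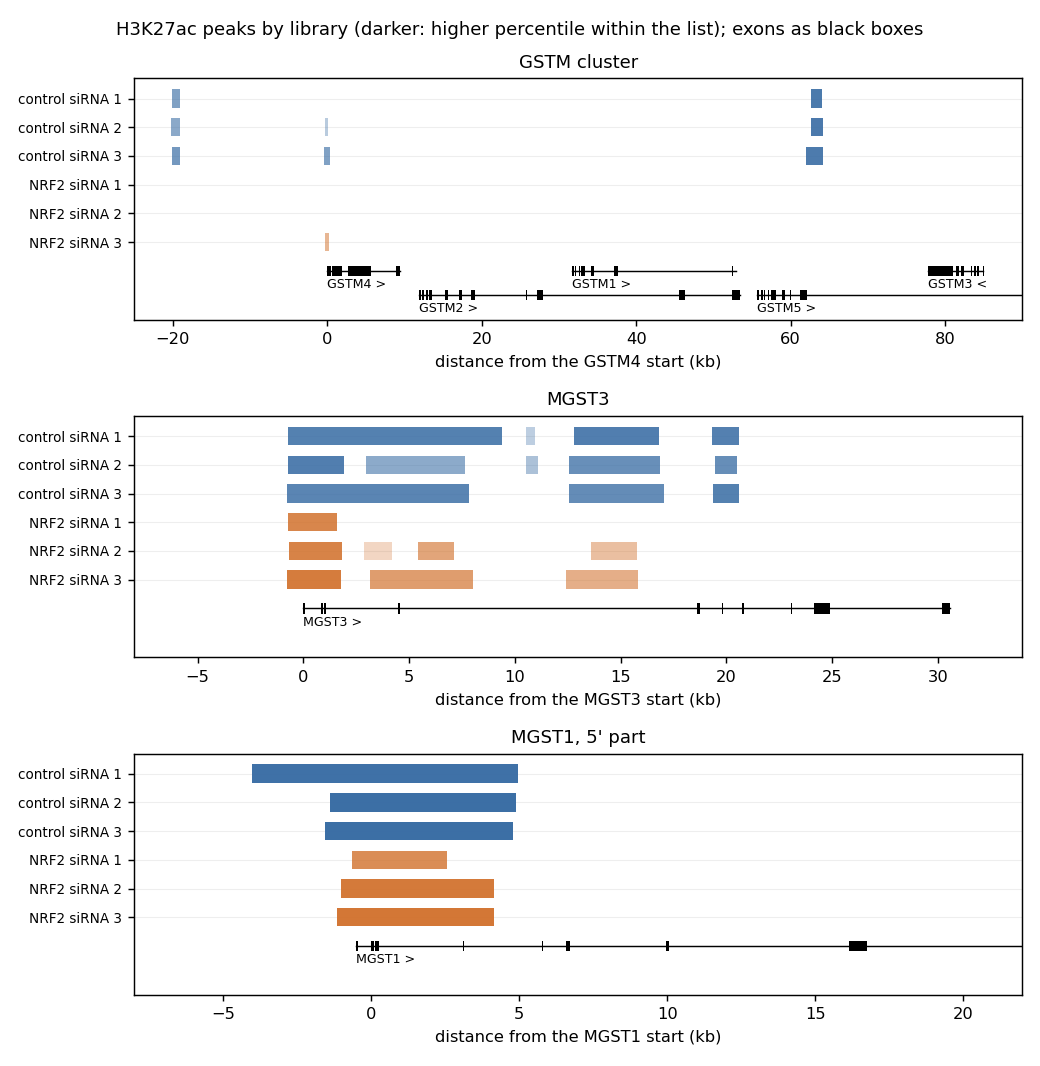
Peaks of each library (rows, blue control and orange NRF2 siRNA, darker for a higher percentile in the list) along the mu class cluster, MGST3 and the 5′ part of MGST1, with exons as black boxes. The x axes give the distance in kb from the starts of GSTM4, MGST3 and MGST1. Peaks near -20 and 63 kb of the mu class cluster and near 20 kb of MGST3 are in control rows alone, while the MGST3 start has a peak in every row.

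Of the 7 start regions that of MGST1 alone fell. The score of the start region changed by -1.13 (SE 0.23, limma adjusted p = 0.0278, and 0.01 with the replicate block), and the change was -1.14, -1.12 and -1.14 in pairs 1, 2 and 3. The peak over it also spanned less, 8995, 6275 and 6365 bp in controls and 3211, 5183 and 5304 bp with NRF2 siRNA, without overlap between the groups. As at MGST3, covered length moves with the length of a list, so the width is not separate evidence of a fall. A further region, MGST1 +176.5 kb (chr12:16676501-16677662), lies in an intron of the longest annotated MGST1 transcripts and 77468 bp from the start of LMO3, the nearest coding start. It stood at 46.8, 61.6 and 65.5 in controls, had no peak with NRF2 siRNA, and changed by -1.71 (SE 0.3, limma adjusted p = 0.0169). That direction was set by the filter, which the region passed through the controls alone. The SE and p do not measure the mark there.

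The remaining active starts did not pass the test. GSTP1 changed by -0.36 (SE 0.21, limma adjusted p = 0.352), GSTA4 by -0.34 (SE 0.21, adjusted p = 0.38 by limma), GSTO1 by -0.24 (SE 0.22, limma adjusted p = 0.575) and GSTK1 by 0.28 (SE 0.25, limma adjusted p = 0.551). In all, 9 of the 17 regions had every NRF2 siRNA score below every control score and 0 had every score above, against 13.6% and 14.6% of all tested regions. Among the 9 are the 4 regions called in controls alone. Those passed the filter through the controls, so their order is no separate evidence. Beside the 6 that fell, the 9 comprised the starts of GSTP1 and GSTA4 and the region GSTK1 +25.1 kb, at the start of CASP2. That last one stood at 70.7, 70.0 and 76.8 in controls and 47.7, 45.1 and 61.3 with NRF2 siRNA, a change of -0.46 (SE 0.22, limma adjusted p = 0.248). At the GSTO1 start the scores overlapped, although the percentiles within the full lists did not. Scores rank merged regions, whereas percentiles rank peaks. For single regions the exact permutation test, two-sided with 3 libraries against 3, can give no p below 0.1, and each of the 9 had p = 0.1.

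Regions called in every library of one group and none of the other numbered 4 in the direction of controls (GSTM4 -19.7 kb, GSTM3 +21.8 kb, MGST3 +20 kb and MGST1 +176.5 kb), against 2.27% of all regions. In the direction of NRF2 siRNA there were 0, against 0.83% of all regions. By that definition no NRF2 siRNA list, of 23885, 34986 and 39108 peaks in replicates 1, 2 and 3, held a peak in the 4 regions. With every list cut to 23885 peaks, the number called in controls alone was again 4. Whether list length or depth has a part in this was not tested beyond that. By library, 16, 16 and 20 of the 22 regions were called in control replicates 1, 2 and 3, and 8, 11 and 15 in the NRF2 siRNA replicates. Of all regions the same libraries called 50.8%, 64.6% and 82.3%, and 41.7%, 65.5% and 76.2%.

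The other tested regions had wide errors or mixed order. GSTO1 +14.2 kb, at the start of the omega class gene GSTO2, stood at 9.2, 14.7 and 64.6 in controls and at 11.0 and 20.7 in NRF2 siRNA replicates 2 and 3 (change -0.55, limma adjusted p = 0.281). GSTP1 -20.1 kb had the largest upward value of the family, 0.62 (SE 0.3, limma adjusted p = 0.262), from peaks at 34.4 and 9.53 in NRF2 siRNA replicates 2 and 3 and at 4.2 in control replicate 3. GSTP1 +23.1 kb, at the start of NDUFV1, changed by -0.32 and GSTK1 +22.1 kb, at the start of TMEM139, by 0.38, with limma adjusted p = 0.552 and 0.685. The untested rest were weak: GSTO1 -22.5 kb was called in replicate 3 of each group, GSTP1 -10.8 kb in NRF2 siRNA replicate 3 alone, at 42.3, GSTA1 +20.4 kb in control replicates 1 and 3, at 2.99 and 15.7, and GSTA1 -11.7 kb in control replicate 3 alone, at 43.8.

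The siRNA 30 pairs, which share a sequencing run by their peak names, were also fitted without replicate 1. Each of the 6 regions was lower there too, with limma adjusted p = 0.00609 for GSTM3 +21.8 kb and MGST3 +20 kb, 0.00675 for MGST1 +176.5 kb, 0.008 for GSTM4 -19.7 kb, 0.017 for the MGST1 start and 0.0273 for MGST3 +14.7 kb. This fit reuses libraries and regions of the main fit, so it is not a separate repeat. The 4 regions called in controls alone passed the filter through the controls, so their lower scores were set by that. In the siRNA 28 pair alone the score changes of the same regions ran from -2.19 to -1.04.

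Calls changed when single libraries were left out. Without control siRNA replicate 2 the adjusted limma p left 0 of the 17 regions lower, though 7 were lower at an unadjusted p under 0.05, and 0 of all tested regions, of which 2957 were lower at an unadjusted p under 0.05. Without control siRNA replicate 3, NRF2 siRNA replicate 2 or NRF2 siRNA replicate 3, 1, 1 and 3 of the 17 remained past the threshold, and 101, 122 and 452 regions in all. Without control siRNA replicate 1 or NRF2 siRNA replicate 1 there were 5 and 6. The sizes moved less: the change of GSTM3 +21.8 kb ran from -3.03 to -2.28 and that of the MGST1 start from -1.31 to -0.99 over the alternatives in which they could be fitted.

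Genes of related chemistry were counted in the same way, by regions in or within 20 kb. In 16 other members of the superfamily and its membrane relatives, 21 regions were tested, of which 1 fell, the GSTM3 +21.8 kb region again, since GSTM1 and GSTM5 lie beside it. Another 2 rose, and with the replicate block 2 were lower and 2 higher. Over all tested regions, as above, 3.39% fell and 2.01% rose, and 6.62% and 5.72% with the block, so counts as small as these are not a result about this list. Those that rose lay in or within 20 kb of GSTZ1, the zeta class enzyme of tyrosine breakdown (0.84, SE 0.21, limma adjusted p = 0.0496), and of ALOX5AP, a membrane protein of leukotriene synthesis (0.99, SE 0.22, limma adjusted p = 0.0346). With the replicate block a region near GSTA3 was lower too (-0.94, limma adjusted p = 0.0263 with the block and 0.087 without). The median change of that list was -0.26.

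Among 18 genes that process or export glutathione conjugates 61 regions were tested, of which 4 fell and 1 rose, with a median change of -0.06, against the 3.39% and 2.01% of all tested regions. With the replicate block the counts were again 4 and 1, against 6.62% and 5.72%. Counts as small as these are not a result about this list, and the regions below are described singly. Both ABCC1 and ABCC2, pumps that carry glutathione conjugates out of the cell, had lowered regions. At ABCC1 one region called in all libraries changed by -1.22 (SE 0.25, limma adjusted p = 0.0299) and another, called in controls alone, by -1.83 (SE 0.32, limma adjusted p = 0.0178). At ABCC2 the change was -1.11 (SE 0.24, limma adjusted p = 0.0318). A region near ANPEP, an aminopeptidase that trims the conjugates, was called in controls alone and changed by -1.51 (SE 0.32, limma adjusted p = 0.0314), and one near ABCC4, a further efflux pump, was called with NRF2 siRNA alone and changed by 1.88 (SE 0.41, limma adjusted p = 0.0346). These regions of ANPEP and ABCC4, and the ABCC1 region called in controls alone, passed the filter through a single group. Their direction was set by that, and their SE and p do not measure the mark in the other group.

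Of 8 genes that supply glutathione, 30 regions were tested, 1 fell and 2 rose, and the median change was -0.26, against 3.39% and 2.01% of all tested regions. With the replicate block 3 were lower and 2 higher, against 6.62% and 5.72%. These counts too are small and are not a result about the list. The fall was near GCLC, the catalytic subunit of the enzyme that makes the first bond of glutathione (-1.37, SE 0.22, limma adjusted p = 0.0134). The block added another region near GCLC (-0.73, limma adjusted p = 0.041 with the block and 0.0765 without) and one near GCLM, its modifier subunit (-0.8, limma adjusted p = 0.0366 with the block and 0.0619 without). Those that rose were near GSS, glutathione synthetase (0.86, SE 0.21, limma adjusted p = 0.0453), and GSR, glutathione reductase (1.22, SE 0.23, limma adjusted p = 0.0218).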

How the data were processed

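Each deposited list holds the broad H3K27ac peaks of 1 library. Per the study, reads were aligned to hg19 with Bowtie2 2.2.6, reads of low mapping quality were dropped, peaks were called with MACS2 2.1.0.20151222 and blacklisted peaks were taken out. What served as background is not given in the sources used here, and the 2 input samples were not analysed here. The authors deposited, peak by peak, an integer score, a ratio (fold enrichment over background), and the −log10 of the p-value and of the q-value. The score equals 10 times the −log10 q-value cut to a whole number and was not used further.

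All 24 chromosomes with peaks matched GRCh37, and 136 peaks on other contigs stayed in the ranks. Peaks of the 6 lists were merged where they overlapped by at least 1 bp, and a region took its highest fold enrichment in each library. Genes and coding starts came from GENCODE lifted to GRCh37. Regions called in at least 3 libraries were ranked within each library, and the normal scores were fitted by limma 3.58.1 (functions lmFit, eBayes in R 4.3.3, Benjamini-Hochberg over all tested regions, threshold 0.05), a step tested on simulated data. Percentiles count tied peaks by their midpoint. Copies elsewhere in the genome were sought with BLAST 2.17.0 at 95% identity over at least 100 bp. Other steps used Python 3.11.15 and pysam 0.24.0.

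Sample titles give both groups the same replicate numbers. Deviations from the group mean correlated between libraries of the same number (r = 0.398, 0.199 and 0.363). Those were taken as pairs for the pair changes and the replicate block, while the main fit was unpaired. The fit with the replicate block was an alternative, as were equal list lengths (23885 peaks), a q-value of at most 1e-05, other region filters, the length-weighted mean fold, peaks that cover at least 25% of a region, trend and robust options, other gene windows and leaving out libraries. Per the study the replicates were biological, from independent experiments with this line. The p-values rest on the spread between such experiments, which in the NRF2 siRNA group also holds any difference between siRNA 28 and 30. In the 4 regions called in controls alone, every NRF2 siRNA score comes from the rank given to uncalled regions. There the spread of that group does not measure the mark. The members and gene lists were chosen with earlier results of these data known. Named were the start region and the region of smallest p of each member, every region past the threshold with or without the block, and every region called in all libraries of 1 group and 0 of the other. Of the marker genes, PECAM1 was not used here. Results of the simulated data are not given. One sequence is not reported here.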

Additional observations from a re-analysis of the deposited data

How the results depend on the processing

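The 6 falls kept their count with the replicate block, equal list lengths, both together, no filter, the length-weighted mean fold, trend and robust options and the siRNA 30 pairs alone, with 0 rises among the glutathione S-transferase regions in these settings. The count was 3 with stricter peaks, which left 10 regions to test, and 1 with regions called in all 6 libraries, which left 7. Leaving out 1 library gave 0 to 6 falls. Regions called in controls alone numbered 2 with stricter peaks and 2 with a gene window of 5 kb, and 4 to 5 when 1 library was left out. The median score change was -0.85 with equal list lengths, -0.85 with the replicate block and equal list lengths, -0.76 with stricter peaks and -0.58 in the siRNA 30 pairs alone. Silent members numbered 5 when the start of the gene feature alone was used, which added GSTO1 and GSTK1, and GSTK1 was partly marked with stricter peaks.

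Over all regions, 2164 fell and 1868 rose with the replicate block, and 2041 and 2151 with the replicate block and equal list lengths. Equal list lengths alone gave 1185 rises, trend and robust options 1175, and no filter 427. Stricter peaks gave 451 falls and 263 rises, regions called in all 6 libraries 369 and 341, peaks that cover at least 25% of the region 591 and 305, and the siRNA 30 pairs alone 1975 and 1719. Leaving out 1 library gave 0 to 1716 falls and 0 to 882 rises. The cause of these moves was not tested beyond the number of regions and libraries each setting leaves.

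Direction turned in regions that passed no threshold: the MGST3 start was -0.05 with the length-weighted mean fold, -0.47 with peaks that cover at least 25% of the region and -0.03 without control siRNA replicate 3 (-0.03 to 0.2 when 1 library was left out), the GSTK1 start was -0.01 in the siRNA 30 pairs alone and GSTK1 +22.1 kb was -0.04 without control siRNA replicate 2 (-0.04 to 0.88 when 1 library was left out). Without a library, called regions that missed the threshold kept their direction. The lists give no depth, so a missing peak in a shorter list is not shown to be a missing mark.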
